A study of Homo sapiens with 6 samples.

Results

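The genes described here are the TEAD transcription factors TEAD1 to TEAD4, their coactivators YAP1 and WWTR1 (the gene of the TAZ protein), and the vestigial-like cofactors VGLL1, VGLL3 and VGLL4, 9 genes in all. Accessible chromatin at these genes was taken as every ATAC-seq peak with its summit within 1 kb of a transcription start site, inside the gene, or within 50 kb of it, on hg38 with GENCODE release 44. Peaks of the 6 libraries that overlapped were merged into sites, which gave 262 sites at the 9 genes out of 166021 sites in the genome. The 262 comprised 31 promoter, 137 gene body and 94 flank sites, and 0 of them belonged to more than 1 of the genes.

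HLF is an established human liver cancer cell line with mesenchymal features. Cells received 5 μM SNDX-5613 (revumenib), a drug against the menin-MLL1 interaction, or the vehicle DMSO, and each group held 3 libraries from the same batch of the same cell line. The labels give a treatment of 24 h, while the study's text gives a duration of days, which leaves it uncertain how long these cells were treated. Each replicate was 1 dish divided between the treatments per the study's methods, and the p-values measure the spread between these libraries.

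The Hippo pathway is a kinase cascade that restrains YAP and TAZ, which have no DNA-binding domain of their own and reach chromatin by binding TEAD factors at a short sequence, CATTCC or its reverse complement GGAATG. The VGLL proteins bind TEADs at surfaces that overlap those used by YAP and TAZ, and VGLL4 is known as a repressor of TEAD activity. In the adult liver YAP activity is kept low, and its activation is known for enlarging the liver and driving liver tumors. ATAC-seq reads openness at these genes and not their expression.

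SNDX-5613 replicate 3 stood apart in depth, read from the peak lists as the background pileup (overlapping fragments at background). The background was 0.21 in that library and 1.00 to 1.51 in the other 5, and the lowest pileup called as a peak was 3 against 6 or 7, so this library listed mainly strong sites. Peaks were therefore compared as percentiles, in which 100 is the strongest site of a library by -log10 p, among the 33405 sites listed in every library, and again among the 59986 sites listed in each of the 5 deeper libraries. The mesenchymal markers VIM, CDH2 and FN1 had a promoter site in all 6 libraries. Of the hepatocyte markers, ALB, APOA1 and HNF4A had no promoter site. TTR had a promoter site that was listed in the 5 deeper libraries and not in SNDX-5613 replicate 3. The SERPINA1 promoter site was listed in 2 libraries.

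The sequences that carry the values described next are printed first, each taken from hg38 in 5′ to 3′ direction on the forward strand within 100 bases of the strongest summit, with motif matches in capitals. All motifs were searched on both strands. The TEAD core was searched as CATTCC. For AP-1, the binding site of FOS and JUN dimers, the letters were TGANTCA. For NF-Y, a trimeric factor of promoters, they were CCAAT. For GATA factors the letters used were AGATAA. For SP factors, which bind GC boxes at promoters, they were GGGGCGGGG. No letters of one motif contain another.
YAP1 promoter 1, with a TEAD core centred 2 bases from its summit, chr11:102110185-102110385, TEAD core in capitals: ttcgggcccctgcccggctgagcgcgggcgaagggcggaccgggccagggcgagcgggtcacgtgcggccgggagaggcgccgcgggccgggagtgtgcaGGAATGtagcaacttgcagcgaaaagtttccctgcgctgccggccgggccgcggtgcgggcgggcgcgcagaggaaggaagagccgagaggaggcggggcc
WWTR1 promoter 2, lower in every SNDX-5613 library, chr3:149658042-149658239, no match: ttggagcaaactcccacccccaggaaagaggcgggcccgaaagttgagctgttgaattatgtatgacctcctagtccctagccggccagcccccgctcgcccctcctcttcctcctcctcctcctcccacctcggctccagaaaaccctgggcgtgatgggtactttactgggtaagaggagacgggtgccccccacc
TEAD1 body 25, the site called as higher in the 5 deeper libraries, chr11:12802697-12802897, no match: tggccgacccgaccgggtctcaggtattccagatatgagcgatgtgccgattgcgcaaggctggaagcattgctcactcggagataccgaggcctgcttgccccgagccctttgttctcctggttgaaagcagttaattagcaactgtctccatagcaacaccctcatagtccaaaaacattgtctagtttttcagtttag
TEAD1 body 40, with the largest decrease in mean percentile in the 5 deeper libraries, chr11:12863204-12863404, TEAD core and AP-1 in capitals: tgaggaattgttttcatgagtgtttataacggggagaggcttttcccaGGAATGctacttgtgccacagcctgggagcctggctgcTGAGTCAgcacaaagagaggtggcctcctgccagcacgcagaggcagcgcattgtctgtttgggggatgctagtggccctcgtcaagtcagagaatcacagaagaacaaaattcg
VGLL4 body 8, higher in every SNDX-5613 library, chr3:11600594-11600794, TEAD core in capitals: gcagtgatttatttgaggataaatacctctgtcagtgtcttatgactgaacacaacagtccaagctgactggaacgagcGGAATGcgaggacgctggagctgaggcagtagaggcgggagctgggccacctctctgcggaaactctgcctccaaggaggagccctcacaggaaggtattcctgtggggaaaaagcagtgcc

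The TEAD core, at which these factors bind, was itself present at the sites of their own genes. It was found within 100 bases of the summit in 57 of the 262 sites, or 21.8%, against 15.5% of all sites. The share was 41.4% at TEAD4 (12 of 29 sites), 35.7% at VGLL3 (5 of 14) and 4.76% at TEAD3 (1 of 21), and VGLL1 had 0 of 6. AP-1 was found in 17.6% of the 262 against 15.5% of all sites, and NF-Y in 19.5% against 24.3%. These matches are letters in a window and were not tested.

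The longest of these genes held the most sites, TEAD1 (ENSG00000187079.20, chr11:12674421-12944737) with 65 sites and WWTR1 (ENSG00000018408.15, chr3:149517235-149736714) with 53. VGLL4 (ENSG00000144560.16, chr3:11556069-11771350) held 33 sites and TEAD4 (ENSG00000197905.10, chr12:2959330-3040676) 29. YAP1 (ENSG00000137693.14, chr11:102110447-102233424) held 26, TEAD3 (ENSG00000007866.22, chr6:35473597-35497079) 21, TEAD2 (ENSG00000074219.14, chr19:49340595-49362457) 15 and VGLL3 (ENSG00000206538.9, chr3:86876388-86991149) 14. VGLL1 (ENSG00000102243.13, chrX:136532215-136556807) held 6, all in its flanks. A peak was present in all 6 libraries at 55 of the 262 sites, or 21%, against 20.1% of all sites, in the 5 deeper libraries at 93, or 35.5%, against 36.1%, and 90 sites, or 34.4%, were listed in 1 library, against 36.2% of all sites.

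**Figure D1:**
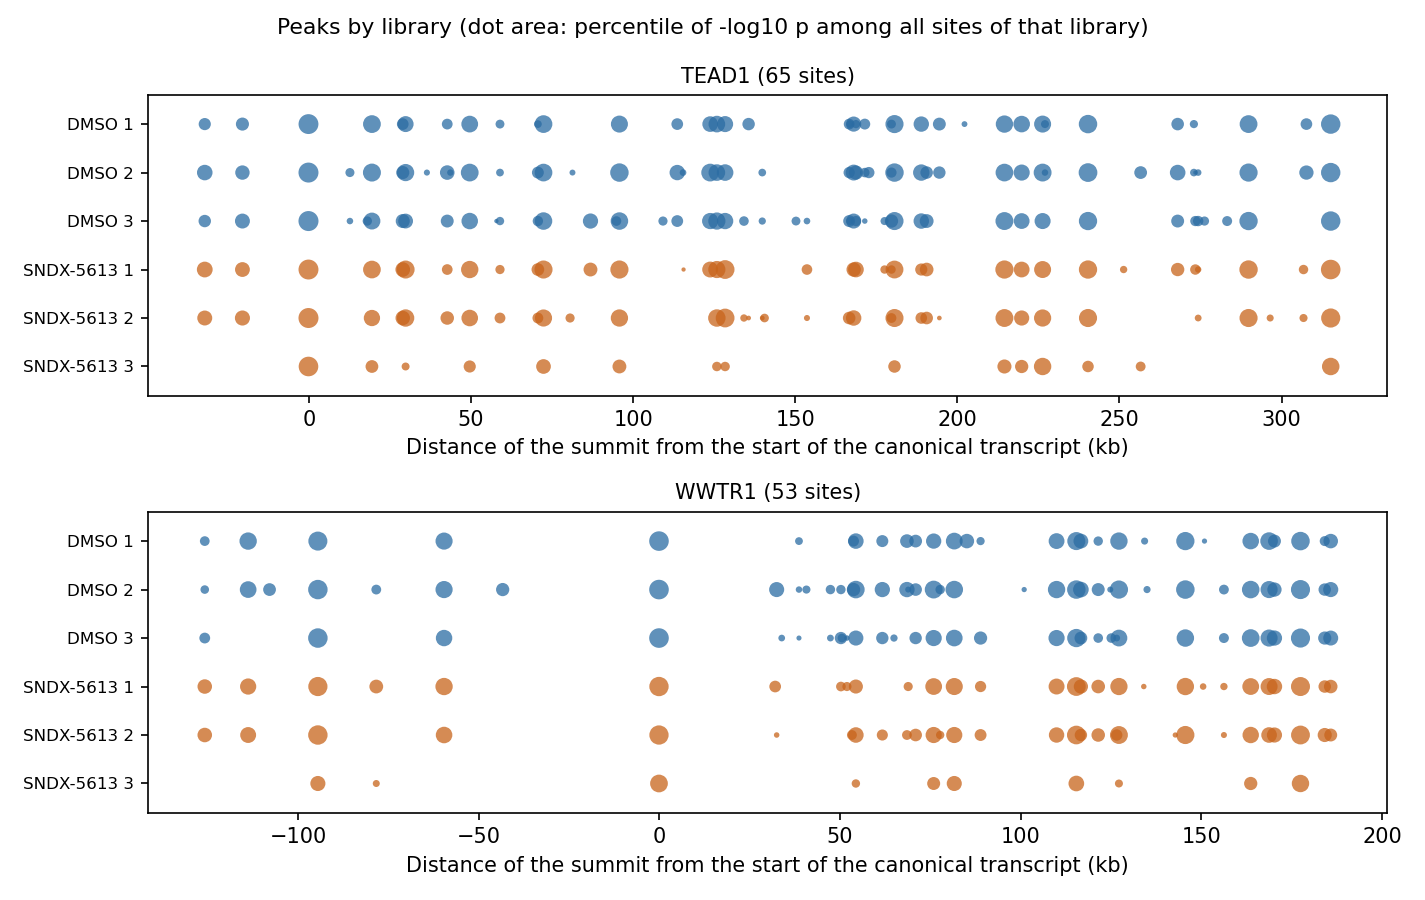
Sites with a peak at TEAD1 (65 sites) and WWTR1 (53 sites), with the distance of the summit from the start of the canonical transcript in kb on the horizontal axis and 1 row per library (DMSO blue, SNDX-5613 orange), and dot area giving the percentile of -log10 p among all sites of that library. The promoter at 0 kb was a strong site in every library, and the row of SNDX-5613 replicate 3 holds 15 TEAD1 and 10 WWTR1 sites against 29 to 47 in the other rows.

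By their strongest promoter site, the 4 TEAD genes ran from near the top of the sites listed in every library to below the middle of them. TEAD1 had the strongest promoter of all 9 genes by percentile, at chr11:12673885-12674746. Its percentile was 91.1, 92.3 and 94.4 in DMSO replicates 1 to 3 and 91.2, 94.1 and 92.7 in SNDX-5613 replicates 1 to 3. The percentiles of the groups overlapped (limma adjusted p = 0.995). The fold enrichment over the local background there was 12.6 to 16.1 in the 6 libraries.

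TEAD2 had its strongest promoter site at chr19:49363148-49364076, which it shared with DKKL1, a gene on the opposite strand. The percentiles were 85.0, 88.1 and 91.1 in DMSO and 87.1, 91.2 and 80.6 in SNDX-5613. A weaker TEAD2 promoter site in an intron, also within 1 kb of a DKKL1 start, had 15.7, 21.6 and 17.8 in DMSO and 23.3, 5.46 and 1.94 in SNDX-5613. Neither site separated the groups (limma adjusted p = 0.904 and 0.564).

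TEAD4 was intermediate. Its promoter site at chr12:2958493-2960204, with a TEAD core near the summit, had percentiles of 63.0, 68.8 and 57.0 in DMSO and 65.7, 61.7 and 72.9 in SNDX-5613 (limma adjusted p = 0.843). TEAD3, with 1 promoter site listed in every library, at chr6:35497117-35498165, was the lowest of the 4 when each gene was read by its strongest promoter site, and its values varied most between libraries. There the percentiles were 52.6, 29.3 and 26.6 in DMSO and 12.3, 29.6 and 37.0 in SNDX-5613, with group means of 36.2 ± 14.3 and 26.3 ± 12.7 (SD, n = 3 each, limma adjusted p = 0.697). Among all sites of each library, shared or not, the same promoter lay at percentiles of 81.0, 74.9 and 69.0 in DMSO and 60.5, 71.9 and 46.7 in SNDX-5613. DMSO replicate 1 was the high value, and without it the difference in means went from -9.89 to -1.67 percentile points. Without SNDX-5613 replicate 3 the difference was -15.2 points (limma adjusted p = 0.395). In the ranking of the 5 deeper libraries it was -14.8 points (limma adjusted p = 0.424).

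The coactivator genes YAP1 and WWTR1 differed in promoter openness. The YAP1 promoter was covered by a pair of neighbouring sites. At the upstream one, chr11:102109912-102110782, where GGAATG is centred 2 bases from the summit in the printed sequence, the percentiles were 58.7, 60.1 and 63.9 in DMSO and 69.8, 58.1 and 70.5 in SNDX-5613. The downstream one, chr11:102110810-102111943 in an intron, had 35.9, 34.2 and 44.2 in DMSO and 44.5, 46.4 and 42.0 in SNDX-5613. At both sites the mean was higher in SNDX-5613, by 5.24 and 6.17 percentile points, while the libraries of the groups overlapped (limma adjusted p = 0.765 and 0.769). The first of these was 3.41 points without SNDX-5613 replicate 1, 9.25 without SNDX-5613 replicate 2 and 3.05 without SNDX-5613 replicate 3. At the upstream site the pileup was 106, 106 and 101 times the background in DMSO and 113, 80.8 and 114 times in SNDX-5613. At the downstream site it was 77, 73.3 and 75.9 against 77.8, 69.5 and 76.2 times, and the groups overlapped at both.

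WWTR1 had 3 promoter sites with a peak in all 6 libraries, and its main promoter was the one whose percentile separated the groups at the smallest p of all promoter sites of the 9 genes. At this site, chr3:149657701-149658923, with its summit at -0.114 kb from the canonical start, the percentiles were 83.2, 79.5 and 82.6 in DMSO and 72.3, 72.9 and 71.1 in SNDX-5613. All 3 SNDX-5613 libraries were below all 3 DMSO libraries, with means of 72.1 ± 0.876 and 81.7 ± 1.99 (SD, n = 3 each). The difference did not pass the test over all sites (normal score difference -0.32 ± 0.13 SE, limma unadjusted p = 0.0264, adjusted p = 0.439), and the adjusted p lay between 0.317 and 0.893 in the alternative fits. When sites were ranked by fold enrichment the score difference was -0.12 (limma unadjusted p = 0.638).

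The pileup of that promoter peak is solved from the same fold and p and is not a separate measurement. It was 149, 139 and 135 times the background in DMSO replicates 1 to 3 and 110, 96.0 and 105 times in SNDX-5613 replicates 1 to 3. In SNDX-5613 replicate 3 this rested on a pileup of 22, with an exact 95% Poisson interval of 65.7 to 159 times the background that covers every DMSO value, and such intervals cover counting error only. By pileup over background the groups were also apart, lower in SNDX-5613, at 2 promoters whose percentiles overlapped. The values were 191, 204 and 189 against 177, 162 and 186 times at the TEAD1 promoter. They were 105, 129 and 111 against 102, 86.8 and 95.2 times at the strongest VGLL4 promoter site. The other promoter sites with a peak in all 6 libraries overlapped by this measure.

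The other 2 WWTR1 promoter sites lay at starts of other transcripts, downstream of the canonical start. The one at chr3:149541929-149542902 had percentiles of 48.7, 45.7 and 48.8 in DMSO and 55.4, 57.5 and 50.5 in SNDX-5613, higher in every SNDX-5613 library (limma adjusted p = 0.722). By pileup over background it was not higher, with 73, 71.0 and 65.5 times in DMSO and 70.6, 64.2 and 66.7 times in SNDX-5613. At chr3:149575523-149576537 the percentiles were 29.9, 28.2 and 23.4 in DMSO and 23.2, 16.6 and 45.1 in SNDX-5613, and the groups overlapped (limma adjusted p = 0.999).

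Among the VGLL genes, VGLL4 had the highest promoter percentile, VGLL3 was lower and VGLL1 had no promoter site. VGLL1 had 0 promoter and 0 gene body sites in every library. Of its 6 flank sites, the 1 found in all 6 libraries lay at -35.0 kb from its start, at the promoter of HTATSF1, a neighbouring gene, and another was found in the 5 deeper libraries. VGLL3 had 1 promoter site, chr3:86990449-86991601, with percentiles of 27.4, 28.6 and 23.3 in DMSO and 24.3, 18.7 and 32.2 in SNDX-5613 (limma adjusted p = 0.950).

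VGLL4 has 18 annotated starts and held 12 promoter sites, of which 4 had a peak in all 6 libraries. The strongest, chr3:11719038-11720820, lay at -75.7 kb from the canonical start, at the start of another transcript. It had percentiles of 61.9, 72.3 and 71.9 in DMSO and 67.7, 67.1 and 63.1 in SNDX-5613. The canonical promoter, chr3:11643636-11644220, had 49.8, 62.3 and 53.7 in DMSO and 50.7, 55.6 and 51.3 in SNDX-5613. The site 1.06 kb downstream of it had 22.6, 19.7 and 29.9 against 33.9, 19.7 and 12.8, and the one 75 kb downstream had 10.8, 20.8 and 24.9 against 12.6, 19.0 and 41.4. The groups overlapped at all 4 VGLL4 promoter sites (limma adjusted p of 0.866 to 0.921).

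**Figure D2:**
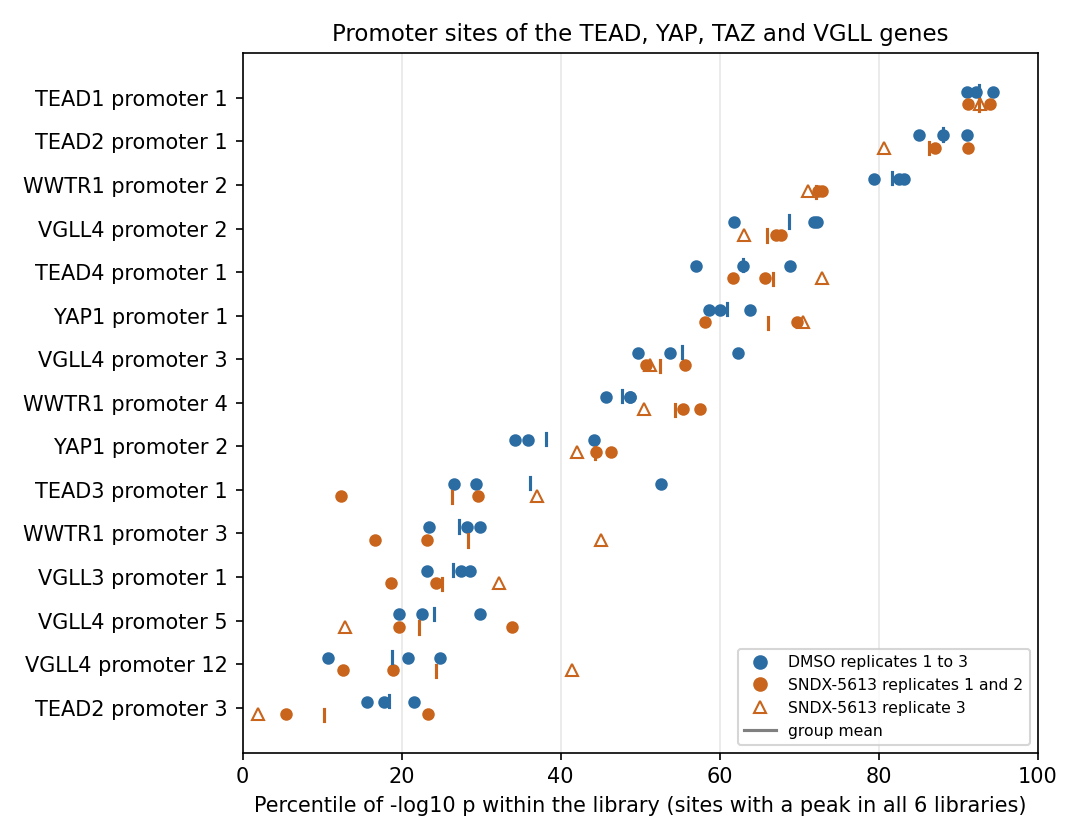
Percentile of -log10 p (horizontal axis, 100 strongest) of the 15 promoter sites with a peak in all 6 libraries, for DMSO (blue points) and SNDX-5613 (orange points, replicate 3 as open triangles), with short vertical lines at the group means. The sites run from TEAD1 promoter 1 at a mean of 92.6 down to TEAD2 promoter 3, and the groups are apart at WWTR1 promoter 2, lower in SNDX-5613, and at WWTR1 promoter 4, higher in SNDX-5613.

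Ranked by the mean over the 6 libraries of each gene's strongest promoter site, the order was TEAD1 at 92.6 ± 1.41 (SD, n = 6), TEAD2 at 87.2 ± 3.99, WWTR1 at 76.9 ± 5.46, VGLL4 at 67.3 ± 4.32, TEAD4 at 64.8 ± 5.59, YAP1 at 63.5 ± 5.52, TEAD3 at 31.3 ± 13.2 and VGLL3 at 25.8 ± 4.72. TEAD1 exceeded TEAD2, TEAD2 exceeded WWTR1 and WWTR1 exceeded VGLL4 in 6 of 6 libraries. VGLL4, TEAD4 and YAP1 did not differ beyond their spread, with each above the next in 4 of 6 libraries. YAP1 and TEAD3 were the neighbours whose ranges did not overlap, and TEAD3 was above VGLL3 in 5 of 6 libraries. A percentile of peak p depends on the pileup of a peak as well as on its fold over the local background. It compares openness between promoters only by rank.

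By the Euclidean distance over the 6 library percentiles, the genes with the most similar strongest promoter to TEAD1 were CHURC1 and CHURC1-FNTB, which share a promoter, at 0.937 percentile points. The nearest to TEAD2 was SRSF1 with ENSG00000266086 at the same site (1.83), and the nearest to YAP1 were MGA (4.39) and DMAC1 (5.51). WWTR1 was nearest to MFSD4A (4.1) and SYDE2 (4.21), and VGLL4 to GNL3 and PBRM1, at 1 shared promoter (4.20). TEAD4 was nearest to ATP1B3 (5.27) and BDH2 (6.36), VGLL3 was close to ZNF385D (8.02), and TEAD3, the most variable, was nearest to PCDHA5 (14.5) and TGFBRAP1 (15.9).

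The question of the comparison was whether blocking menin altered accessibility, and across the sites of these 9 genes 0 of 55 passed the limma test in all 6 libraries (adjusted p under 0.05), where 0.222% of all sites did (0.195% higher and 0.0269% lower in SNDX-5613). At an unadjusted p under 0.05 there were 2, both lower in SNDX-5613, or 3.64% against 10.1% of all sites. Percentiles of the groups did not overlap at 8 of the 55 sites, 3 higher and 5 lower, or 14.5%, where 16.6% of all sites did so. The median difference was -1.31 percentile points over the 55 sites and -0.0933 over all 33405 sites, and 23 of the 55 were higher and 32 lower. With 0.222% of all sites passing, a count of 0 among 55 does not set these genes apart from other sites. Ranks within a library also cannot show a general gain or loss of accessibility. The study's own test, on read counts in consensus regions, reported regions that gained and regions that lost accessibility. A change in the share of cells with an open site and a change in openness per cell cannot be told apart in bulk libraries.

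In the 5 deeper libraries 1 of 93 sites passed, higher in SNDX-5613, or 1.08%, against 0.362% of all sites (and 0.217% lower, 0.578% in either direction). There the groups did not overlap at 29 sites, 13 higher and 16 lower, or 31.2% against 28.7% of all sites, and 7 of the 93 had an unadjusted p under 0.05 (7.53% against 12.3%). The median difference was -1.56 percentile points against -0.133 over all 59986 sites.

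The site that passed was TEAD1 body 25, an intronic region at chr11:12802595-12803047, 128 kb downstream of the TEAD1 start and printed above. In the ranking of the 5 deeper libraries its percentile was 45.2, 38.1 and 43.1 in DMSO and 74.7 and 77.3 in SNDX-5613 replicates 1 and 2. The means were 42.1 ± 3.62 (SD, n = 3) and 76.0 ± 1.82 (SD, n = 2), and the normal score difference was 0.91 ± 0.15 SE (limma adjusted p = 0.00431). The peak pileup was 42, 49 and 52 in DMSO and 90 and 98 in these SNDX-5613 libraries, or 35.9 to 42 times the background against 64.9 to 71.4 times.

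The percentile of TEAD1 body 25 was not higher in SNDX-5613 replicate 3, a library whose low depth cannot decide whether it shared the higher level. In the ranking over all 6 libraries the percentiles were 22.9, 17.0 and 20.1 in DMSO and 55.8, 59.8 and 9.49 in SNDX-5613 replicates 1 to 3, and with that library the difference did not pass (limma adjusted p = 0.591). Its pileup there was 7, or 33.3 times the background, with an exact 95% Poisson interval of 13.4 to 68.7 that takes in the DMSO values and 1 of the other SNDX-5613 values. The adjusted p was 0.00305 when that library was left out over the same 33405 sites and 0.0229 when libraries were weighted by their spread, in which it had a weight of 0.269 against 0.945 to 1.84.

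Another TEAD1 intron gave the opposite pattern in the deeper libraries, and it was singled out after its values were seen. TEAD1 body 40, at chr11:12863186-12863384 and 189 kb downstream of the start, had percentiles of 38.2, 36.0 and 32.9 in DMSO and 7.17 and 6.11 in SNDX-5613 replicates 1 and 2. Pileups were 23, 31 and 28 against 13 and 14, or 19.3 to 23.7 times the background against 9.27 and 10.3 times. No peak was listed in SNDX-5613 replicate 3. The difference did not pass the test (normal score difference -1.14 ± 0.28 SE, limma adjusted p = 0.0665). Its sequence holds a TEAD core centred 50 bases and an AP-1 match centred 11 bases upstream of the summit.

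**Figure D3:**
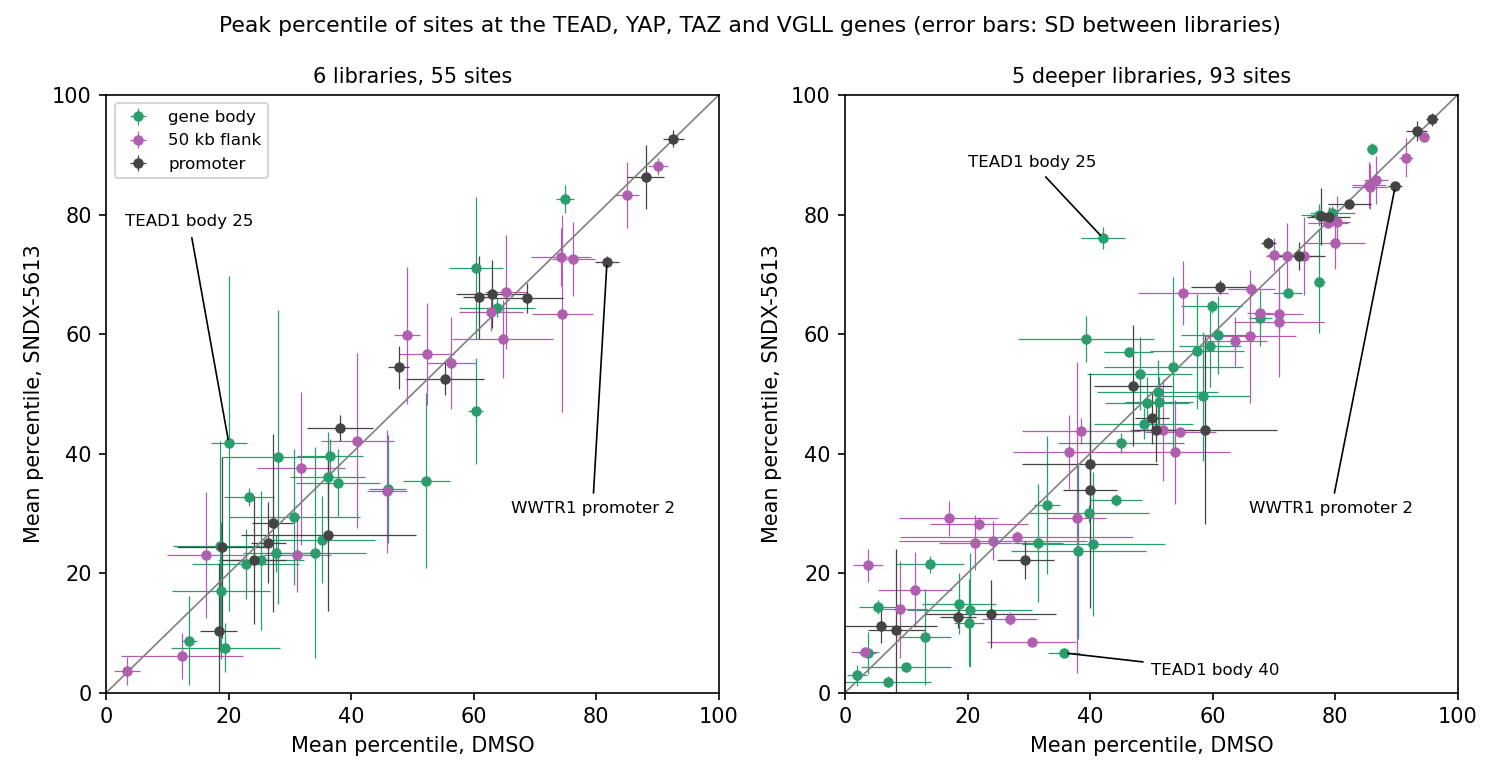
Mean percentile in DMSO (horizontal axis) against SNDX-5613 (vertical axis) for the 55 sites listed in every library (left) and the 93 sites with a peak in the 5 deeper libraries (right), with SD between libraries as error bars, colours for site class and the line of equal values. Most sites lie along the line, with TEAD1 body 25 above it (42.1 against 76.0 in the right panel) and TEAD1 body 40 and WWTR1 promoter 2 below it.

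Gene body sites had lower percentiles than promoters in the median. The median over sites in all 6 libraries of the mean percentile was 30.6 for the 22 body sites, 51.1 for the 15 promoter sites and 55.1 for the 18 flank sites, of which 6 lay at promoters of other genes (KASH5, FANCE, RPL10A, TSPAN9, HTATSF1 and COMMD2). At VGLL4 body 8, chr3:11600461-11601150 in an intron and printed above with its TEAD core, the percentiles were 76.5, 74.9 and 73.4 in DMSO and 85.1, 82.4 and 80.3 in SNDX-5613. The SNDX-5613 libraries were all higher in percentile, with a normal score difference of 0.27 ± 0.13 SE (limma adjusted p = 0.510). By pileup over background the groups overlapped, with 140, 138 and 115 times in DMSO and 151, 119 and 133 times in SNDX-5613. The same site had 86.8, 86.0 and 85.2 against 91.7 and 90.2 in the ranking of the 5 deeper libraries.

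The other body sites with the smallest p did not pass either. TEAD2 body 2, chr19:49347738-49348151, was higher in mean, with 55.3, 62.1 and 63.6 in DMSO and 66.6, 62.1 and 84.4 in SNDX-5613 (limma adjusted p = 0.558). TEAD1 body 48, chr11:12914421-12914967, was lower, with 56.2, 52.0 and 48.5 in DMSO and 43.8, 44 and 18.5 in SNDX-5613 (limma unadjusted p = 0.0445, adjusted p = 0.482). TEAD3 body 1, chr6:35490023-35490800, was lower, with 59.0, 60.6 and 61.4 against 56.0, 38.3 and 47.1 (limma adjusted p = 0.499). The groups were apart at TEAD1 body 48 and TEAD3 body 1 and overlapped at TEAD2 body 2. WWTR1 body 14, chr3:149603556-149603926, had 18.5, 28.7 and 11 in DMSO and 4.31, 12.2 and 6.08 in SNDX-5613 and overlapped (limma adjusted p = 0.496).

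Single libraries carried much of the difference at these body sites. Without SNDX-5613 replicate 3 the difference in mean percentile went from -16.8 to -8.33 points at TEAD1 body 48 (limma unadjusted p = 0.182) and from 10.7 to 4.01 points at TEAD2 body 2. It went from -13.2 to -8.80 at TEAD3 body 1 without SNDX-5613 replicate 2, and from -11.9 to -7.22 at WWTR1 body 14 without DMSO replicate 2.

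The number of sites with a peak at the 9 genes was 144, 179 and 161 in DMSO and 152, 144 and 60 in SNDX-5613, with means of 161 ± 17.5 and 119 ± 51.0 (SD, n = 3 each). The difference of -42.7 sites was within what regrouping the libraries gives (exact two-sided permutation p = 0.3, where 0.1 is the smallest that 3 against 3 libraries allow). SNDX-5613 replicate 3 held the lowest number, and without it the difference was -13.3 sites (exact permutation p = 0.5). As a share of all sites of a library, a measure chosen after the data were seen, the sites at these genes made up 0.170%, 0.164% and 0.172% in DMSO and 0.146%, 0.151% and 0.155% in SNDX-5613. Every SNDX-5613 library was below every DMSO library (exact permutation p = 0.1). With the 40568 strongest regions of each library, 67, 67 and 61 sites remained in DMSO and 59, 60 and 60 in SNDX-5613 (exact permutation p = 0.1). Equal regions did not give equal totals of sites in the genome. These totals were 40228, 40118 and 40241 in DMSO and 40112, 40285 and 38715 in SNDX-5613. The groups were apart by 61 against 60 sites, and the lowest total belonged to a library with 60. These counts therefore cannot decide whether sites at these genes were fewer in every SNDX-5613 library.

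**Figure D4:**
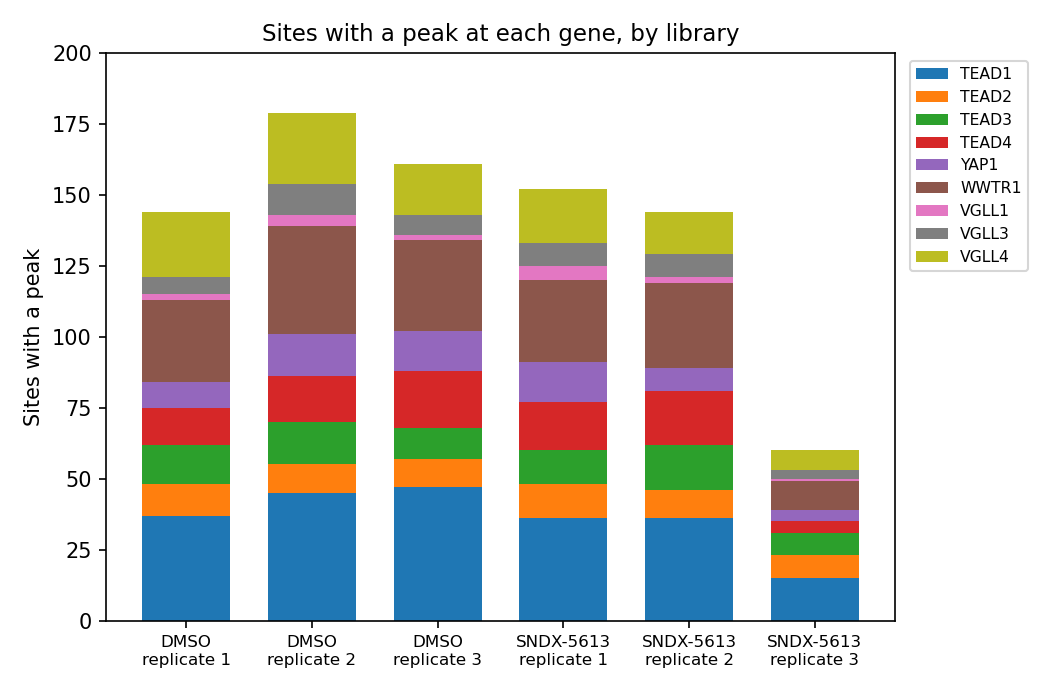
Number of sites with a peak at each of the 9 genes (stacked colours) in each library (bars), with a total of 144 to 179 in DMSO and of 152, 144 and 60 in SNDX-5613 replicates 1 to 3. TEAD1 and WWTR1 give the tallest segments in every library, and the bar of SNDX-5613 replicate 3 is the shortest.

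Peaks listed in every library of one group and in 0 of the other were few. Of the 262 sites 0 were listed in all 3 SNDX-5613 and 0 of 3 DMSO libraries, against 0.147% of all sites, and 4 were listed in all 3 DMSO and 0 of 3 SNDX-5613 libraries, or 1.53% against 1.18% of all sites. The pileups at these 4 ran from 7 to 26 in DMSO. Among all sites of each DMSO library, TEAD1 body 20 lay at percentiles of 30.6, 56.3 and 31.1. TEAD1 body 20, chr11:12787983-12788252, had pileups of 14, 26 and 16 in DMSO, and TEAD1 body 35, chr11:12845704-12846019, had 18, 17 and 14. WWTR1 body 6, chr3:149619308-149619570, had 8, 8 and 7, close to the lowest pileup called, and YAP1 flank 3, chr11:102241178-102241334, had 11, 12 and 16. Without SNDX-5613 replicate 3, sites in both remaining SNDX-5613 libraries and 0 of 3 DMSO libraries numbered 2, or 0.763% against 2.39% of all sites, and the 4 lost sites stayed at 1.53% against 1.21%. The 2 gained sites were TEAD1 flank 10, chr11:12981065-12981632, with pileups of 11 and 11, and YAP1 flank 1, chr11:102061415-102061669 inside CFAP300, with 13 and 13.

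The genes upstream and downstream of these factors were read through their promoters. All 15 genes of the Hippo kinase module (STK3, STK4, SAV1, LATS1, LATS2, MOB1A, MOB1B, NF2, WWC1, FRMD6, TAOK1, TAOK2, TAOK3, MAP4K4 and PTPN14) had a promoter site in all 6 libraries. Of their 20 such sites 0 passed the limma test in either direction, the groups did not overlap at 1, where 16.6% of all sites did so, and the median difference was -0.564 percentile points. That site was the promoter of PTPN14, a phosphatase that binds YAP, with 82.2, 88.5 and 86.4 in DMSO and 89.4, 88.8 and 91.5 in SNDX-5613.

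All 22 genes of the list of YAP/TAZ targets had a promoter site, 21 of them in all 6 libraries. Of the 24 such sites 0 passed the limma test, and the groups did not overlap at 5 higher sites and 1 lower site, where 8.54% of all sites were higher and 8.08% lower in this way. The median difference was 0.563 percentile points. The widest of these was at CCN2, a secreted matricellular protein and a standard readout of YAP activity, with 54.7, 57.4 and 56.2 in DMSO and 69.8, 67.2 and 77.2 in SNDX-5613 (limma adjusted p = 0.362). ANKRD1, a nuclear ankyrin repeat protein, had 64.0, 67.2 and 64.9 against 77.0, 74.8 and 73.4. AMOTL2, a binding partner of YAP, CCDC80 and PTPN14 were the other higher sites, by 3.84, 4.72 and 4.17 percentile points. PTPN14 and LATS2 are on both lists, and this PTPN14 site is the same one counted for the Hippo kinase module. MYOF, a membrane repair protein, was lower with 57.1, 62.4 and 45.9 against 43.8, 42.8 and 45.3. These 6 genes were named after their values were seen, as were the next 2. At CCN1 the groups overlapped, with 49.7, 64.9 and 61.9 in DMSO and 56.6, 59.4 and 81.1 in SNDX-5613. The largest difference in means of the 24 sites was a lower one, -16.1 percentile points at DOCK5. There the groups overlapped, with 64.0, 54.4 and 40.2 in DMSO and 32.9, 51.5 and 25.8 in SNDX-5613.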

How the data were processed

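ATAC-seq of 6 HLF libraries (3 DMSO, 3 SNDX-5613) was analysed from the deposited peak lists, grouped by the labels. Per the study's methods and the submitters' processing notes, the authors used the Omni-ATAC protocol, Trim Galore 0.6.7, Bowtie2 2.3.4.1 on hg38, Picard 2.20.0 to mark duplicates, SAMtools, deepTools 3.5.4 and MACS2, with peaks called in each library alone. A Tn5 shift, duplicate removal and a blacklist were not given in the sources used here, and unfiltered reads can add peaks in repeats. The deposited values are, per summit, the fold enrichment (a ratio to the local background), -log10 p, -log10 q and an integer score. The score was not used, and neither were the group consensus sets, which hold no replicates. Some items are not reported here, so the marker genes, genes with similar promoters and printed sequences are not complete. The authors' counts in consensus regions were not analysed here.

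Any overlap of 1 bp or more joined regions into a site, on chromosomes 1 to 22, X and Y, and 0 sites lay past a chromosome end. Within each library, sites were ranked by their highest -log10 p, and normal scores of the ranks were compared with limma 3.58.1 (R 4.3.3, empirical Bayes with trend, treatment only) over all sites, with Benjamini-Hochberg adjustment. The script was tested on simulated data. Numbers of sites were compared by exact two-sided permutation of libraries. Pileups and the background of each library, a relative measure of depth, were solved from fold and p, and read numbers are unknown. Same-numbered libraries had deviations correlated at 0.016, 0.00053 and 0.007, so replicate numbers were not used as a block.

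Every promoter site with a peak in all 6 libraries was named, with body and flank sites that passed, were gained or lost, or had the 3 smallest p in each direction. The members and lists were chosen with earlier results of these data known. Alternatives were a replicate block, leaving out each library, the 5 deeper libraries, ranking by fold, percentiles, library weights, -log10 q of at least 3, promoters within 3 kb, flanks of 10 kb, 50% cover and equal numbers of regions.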

Additional observations from a re-analysis of the deposited data

How the results depend on the processing

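Depth limited SNDX-5613 replicate 3, where weak sites were not detectable. Same-numbered libraries did not deviate together, so the pairing was not used, and with a replicate block 0 of 55 sites passed limma, as in the reported fit. The count was also 0 when ranking by fold enrichment, on the percentile scale and with the other promoter and flank distances. With -log10 q of at least 3 it was 0 of 46 sites, and TEAD1 body 25 was not among those tested. The count was 1 (TEAD1 body 25, higher) in the 5 deeper libraries and with library weights. It was 0 to 1 when each library was left out, with 1 only without SNDX-5613 replicate 3. At an unadjusted p under 0.05 these fits gave 0 to 7 sites.

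The 8 sites with groups apart became 29 in the 5 deeper libraries and 7 to 8 under the other settings with all libraries, and 10 to 16 when a library was left out, with 14 without SNDX-5613 replicate 1 and 16 without SNDX-5613 replicate 3. Sites lost numbered 4, and 2 with equal numbers of regions, 2 with -log10 q of at least 3, and 4 to 12 when a library was left out (7 without DMSO replicate 2, 10 without DMSO replicate 3, 12 without SNDX-5613 replicate 1 and 10 without SNDX-5613 replicate 2), since fewer libraries then had to meet the rule. Sites gained numbered 0 to 2, with 2 only without SNDX-5613 replicate 3. The difference in the number of sites stayed negative, from -59.3 to -13.3 when a library was left out and -5.33 with equal numbers of regions.

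Of 249 values for 21 named sites under the alternatives, 27 changed sign with neither value past the threshold, at 8 sites, and 3 passed the threshold, each of them TEAD1 body 25. The cause was not tested.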
